A study of Mus musculus with 37 samples.

Results

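Mt1 and Mt2 encode the metallothioneins that most mouse tissues make, and Mtf1 encodes the transcription factor that switches them on. The 3 genes were taken by name as rows of the deposited RNA-seq table, out of 23235 genes in all, with their values in every RNA library. They were chosen by their FPKM levels in these 5 libraries, so these levels and all differences between them are given as a description, without a test.

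Metallothioneins are small cysteine-rich proteins that bind zinc and copper, and also take up cadmium and other toxic metals. MTF1, the metal-responsive transcription factor encoded by Mtf1, carries zinc fingers that bind DNA when free zinc rises. It acts on short metal response elements in the promoters of Mt1, Mt2 and the zinc exporter gene Slc30a1. Mouse oocytes take up zinc while they mature, and release part of it at fertilization. Mouse embryos that lack Mtf1 die around mid-gestation with liver damage, whereas mice that lack both Mt1 and Mt2 are viable but sensitive to metals.

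The study mapped open chromatin in mouse preimplantation embryos and profiled RNA after knockdown of Nfya. That gene encodes a subunit of NF-Y, a transcription factor that recognises the CCAAT box. Of its 37 samples, the 5 RNA-seq libraries are used here. They were 2 libraries of 2-cell embryos given siRNA against Nfya (Nfya-KD), 2 of 2-cell embryos given a control siRNA (siControl), and 1 of 1-cell embryos with no siRNA named in its label. The 2-cell embryos were collected 30 h after fertilization and the 1-cell embryos at 12 h. The strain label of all 5 libraries names BDF1 oocytes and BDF1 sperm, and the mothers were superovulated and 8 weeks old. The general protocol names JF1 males for fertilization and BDF1 sperm for the 1-cell stage. All embryos came from fertilization in vitro and were cultured in KSOM. Every library was a pool of embryos. Nfya-KD libraries 1 and 2 held 10 and 13 embryos, siControl libraries 1 and 2 held 10 and 16, and the 1-cell library held 20. The labels number the Nfya siRNA 1 or 2 as the library. Whether pools had different mothers is not in the labels, and p-values then measure only the spread between these libraries, which may be technical. In pooled embryos, fewer cells that make an RNA and less of it per cell cannot be told apart.

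Nfya itself stood at 3.28 and 4.48 FPKM in Nfya-KD libraries 1 and 2, against 10.3 and 15.5 FPKM in siControl libraries 1 and 2 and 36.8 FPKM in 1-cell embryos. Both Nfya-KD libraries lay below both siControl libraries, by a log2 difference of -1.50 (SE 0.33) that did not pass (limma adjusted p = 1.00). That fit had no term for the library number, so gaps between numbers counted as spread within groups. The log2 difference was -1.40 among libraries numbered 1 and -1.59 among those numbered 2. FPKM, fragments per kilobase of transcript scaled to the mapped reads, is scaled by transcript length, so levels of different genes can be set side by side, but only roughly. The sum over all genes is not fixed and ran from 243441 FPKM in siControl 1 to 457684 FPKM in siControl 2. Absolute read numbers are not known. From the steps of values under 0.3 FPKM, Nfya-KD 1, Nfya-KD 2, siControl 2 and the 1-cell library held 1.02, 0.756, 0.912 and 0.749 times the reads of siControl 1. Markers matched the labelled stages in siControl and 1-cell embryos. Of 9 markers of the 2-cell stage 7 passed the filter of 1 FPKM in 2 of the 4 2-cell libraries, and all 7 were at least 2-fold higher in siControl than in 1-cell embryos. The other 2, Tcstv1 and Tcstv3, were listed at 0 in every library. For 5 of the 7, both Nfya-KD libraries lay below both siControl libraries, beside 8.61% of all genes. The median log2 difference of the 7 was -0.05 among libraries numbered 1 and -0.82 among those numbered 2. None of the 7 passed. Markers of cumulus and granulosa cells, which surround the egg, were low. The 12 markers summed to 3.98 to 7.01 FPKM over the 5 libraries. Of the 12, 11 missed the same filter, which covers 2-cell libraries only. In the 1-cell library Cyp19a1 stood at 5.91 FPKM, above Mt1 and Mt2 there. Tnfaip6 made up most of the sum in each 2-cell library. Amh was listed at 0 in 4 of the 5 libraries, with 0.04 FPKM in Nfya-KD 2.

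The start regions of the 3 genes show which of them carry letters that MTF1 or NF-Y is known to bind. The windows run from 250 bases before to 50 bases after the start site in RefSeq, build GRCm38.p6, all on the + strand, and 3 of 3 genes had an entry. Capitals mark the metal response element core (TGCACNC or TGCGCNC, on either strand) in Mt1 and Mt2, and the CCAAT box in Mtf1. No capital stretch overlaps another.
Mt1, chr8:94178839-94179138: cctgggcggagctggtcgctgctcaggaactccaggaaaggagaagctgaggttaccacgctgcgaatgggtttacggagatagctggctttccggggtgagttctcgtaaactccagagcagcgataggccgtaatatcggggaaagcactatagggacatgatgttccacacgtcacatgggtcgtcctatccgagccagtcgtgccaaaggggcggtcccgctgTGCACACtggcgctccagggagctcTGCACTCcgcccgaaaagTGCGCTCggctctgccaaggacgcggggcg
Mt2, chr8:94172368-94172667: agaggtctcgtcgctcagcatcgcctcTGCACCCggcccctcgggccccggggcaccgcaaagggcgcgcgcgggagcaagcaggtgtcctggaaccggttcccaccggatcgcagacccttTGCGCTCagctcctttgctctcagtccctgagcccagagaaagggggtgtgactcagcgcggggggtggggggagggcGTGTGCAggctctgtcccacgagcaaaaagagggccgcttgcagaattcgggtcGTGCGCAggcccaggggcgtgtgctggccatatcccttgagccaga
Mtf1, chr4:124802299-124802598: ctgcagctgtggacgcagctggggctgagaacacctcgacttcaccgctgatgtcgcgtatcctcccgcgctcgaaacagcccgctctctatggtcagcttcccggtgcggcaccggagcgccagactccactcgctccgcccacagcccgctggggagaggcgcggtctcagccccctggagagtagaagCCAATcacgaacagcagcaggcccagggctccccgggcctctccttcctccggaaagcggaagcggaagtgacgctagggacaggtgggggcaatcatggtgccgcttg

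The Mt1 window held 3 core matches, all on the + strand, starting at positions -23, 3 and 21, counted from the start site listed in RefSeq. Other start sites and bases outside the windows were not searched. The counts and positions are therefore not those of the whole promoters. The Mt2 window held 4 matches. Those on the + strand began at -223 and -128, and the other 2, on the opposite strand, began at -50 and 5. Among all 32851 windows of this length, 25.7% held at least 1 core match on either strand, 1.97% at least 3 and 0.517% at least 4. Neither metallothionein window held the letters CCAAT on either strand. The Mtf1 window had no metal response element core, and 1 CCAAT box that began at -59, on the + strand. Of all windows 37.4% held at least 1 CCAAT. A match is a description of letters, not of binding. In the GRCm38 annotation Mt2 and Mt1 are direct neighbours, and Mt4 and Mt3 lie before them on the same strand of the chromosome.

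Both metallothionein RNAs were low in 1-cell embryos and among the most abundant RNAs of 2-cell embryos. Mt1 was at 647 and 2707 FPKM in Nfya-KD libraries 1 and 2, at 494 and 2899 FPKM in siControl libraries 1 and 2, and at 4.29 FPKM in 1-cell embryos. Mt2 was at 244 and 1131 FPKM in Nfya-KD, at 189 and 1239 FPKM in siControl, and at 3.43 FPKM in 1-cell embryos. Each of the 4 2-cell libraries lay far above the 1-cell library for both genes. Mtf1 ran the other way, at 8.17 and 8.46 FPKM in Nfya-KD, at 9.93 and 7.85 FPKM in siControl, and at 28.7 FPKM in 1-cell embryos.

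**Figure D1:**
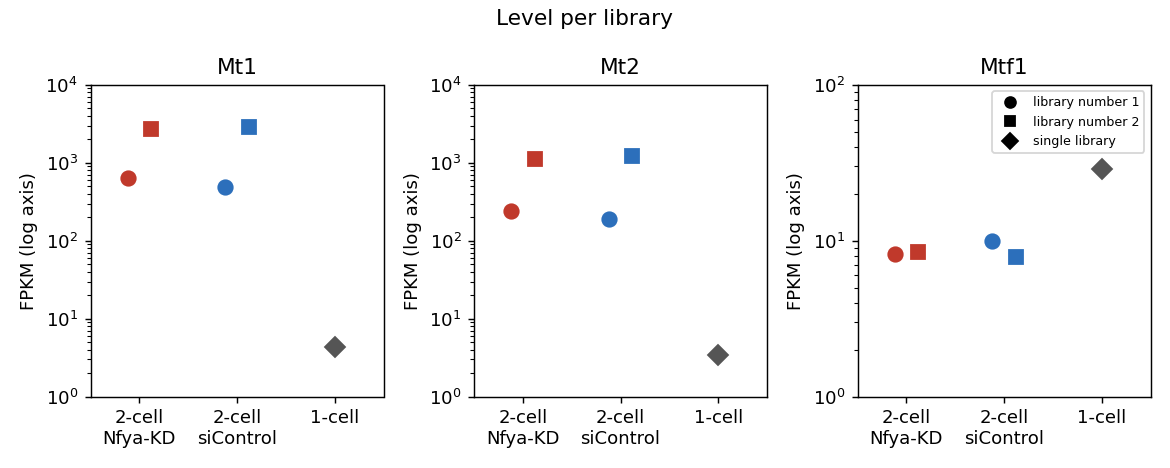
Levels of Mt1, Mt2 and Mtf1 in FPKM on a log axis, 1 point per library, for 2-cell Nfya-KD, 2-cell siControl and 1-cell embryos, with circles for libraries numbered 1 and squares for those numbered 2. Mt1 lies between 494 and 2899 FPKM in 2-cell libraries and at 4.29 FPKM in the 1-cell library, while Mtf1 is highest in the 1-cell library at 28.7 FPKM.

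Set against the 1-cell library, Mt1 stood 115 times as high in siControl 1 and 676 times as high in siControl 2. Mt2 stood 55.1 times as high in siControl 1 and 361 times as high in siControl 2. On the log2(FPKM + 1) scale, the mean siControl level minus the 1-cell level was 7.82 for Mt1, with 6.55 and 9.10 for the 2 libraries, and 6.78 for Mt2, with 5.42 and 8.13. By this difference Mt1 ranked 10 and Mt2 ranked 27 among 11610 genes with at least 1 FPKM in the 1-cell library or on average in siControl. Genes counted as past a fold are counted on the log2(FPKM + 1) scale, which understates changes of low genes, whereas a value given as times is a ratio of FPKM. Of the 11610 genes 22.2% were at least 2-fold higher in siControl than in the 1-cell library and 34.1% at least 2-fold lower. The median difference over all of them was -0.51. The 1-cell group has 1 library, so this comparison has no replicate check there. Its label names no siRNA, whereas the siControl embryos were given one and were cultured to 30 h instead of 12 h. Effects of stage, siRNA and time in culture cannot be told apart here, also where the comparison is called a stage difference.

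Mtf1 differed by -1.60 between siControl and 1-cell embryos on the same scale, with -1.44 for siControl 1 and -1.75 for siControl 2. The 1-cell level was 3.23 times the siControl mean. Scaling sets the size of this difference. With each library scaled by the median of gene ratios it was -0.87, short of 2-fold, and the median of all genes was 0.10. The metallothionein differences were 8.48 for Mt1 and 7.41 for Mt2 under that scaling. It also turned the shares of all genes to 31.1% at least 2-fold higher and 17.2% at least 2-fold lower. Scaling to an equal sum gave 28.8% and 31.1%.

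Mt1 was the more abundant of the pair in every library. Its level was 2.65 and 2.39 times that of Mt2 in Nfya-KD libraries 1 and 2, 2.61 and 2.34 times in siControl libraries 1 and 2, and 1.25 times in 1-cell embryos. By rank among all genes of the library, Mt1 stood at 34 and 13 in Nfya-KD and at 38 and 13 in siControl, against 6698 in 1-cell embryos. Mt2 stood at 123 and 48 in Nfya-KD and at 151 and 43 in siControl, against 7163 in 1-cell embryos. Both stood near the top of the list in each 2-cell library and far down it in the 1-cell library. Together the pair made up 0.342% and 0.853% of summed FPKM in Nfya-KD and 0.280% and 0.904% in siControl, against 0.00185% in 1-cell embryos. Mt1 and Mt2 are close in coding sequence, and the sources used here do not say how reads that match both were divided, so the ratio between them is uncertain to that extent.

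The knockdown of Nfya came with no separation of the groups for any of the 3 genes. Mt1 averaged 1677 ± 1457 FPKM in Nfya-KD and 1696 ± 1701 FPKM in siControl (SD, n = 2 each). Mt2 averaged 688 ± 627 FPKM in Nfya-KD and 714 ± 743 FPKM in siControl (SD, n = 2 each). Mtf1 averaged 8.31 ± 0.199 FPKM in Nfya-KD and 8.89 ± 1.47 FPKM in siControl (SD, n = 2 each). The 4 libraries overlapped for all 3, and each difference of means was smaller than the siControl SD. Over all 10533 genes tested, both Nfya-KD libraries lay below both siControl libraries for 8.61% and above them for 8.27%.

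Within library numbers the differences were small and changed sign between the numbers. Mt1 in Nfya-KD stood at 1.31 times siControl among libraries numbered 1 and at 0.934 times among those numbered 2. For Mt2 the ratios were 1.29 and 0.913, and for Mtf1 they were 0.823 and 1.08. Pooled on the log2(FPKM + 1) scale, Nfya-KD minus siControl was 0.15 for Mt1, 0.12 for Mt2 and -0.08 for Mtf1. These pooled values turn on single libraries. Leaving out siControl 1 gave -1.13 for Mt1, -1.24 for Mt2 and 0.07 for Mtf1, and leaving out siControl 2 gave 1.42, 1.47 and -0.23. Leaving out Nfya-KD 1 gave 1.18 for Mt1, 1.22 for Mt2 and -0.06 for Mtf1, and leaving out Nfya-KD 2 gave -0.89, -0.99 and -0.10. For both metallothioneins the group with the larger share of libraries numbered 2 among those kept was the higher one.

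**Figure D2:**
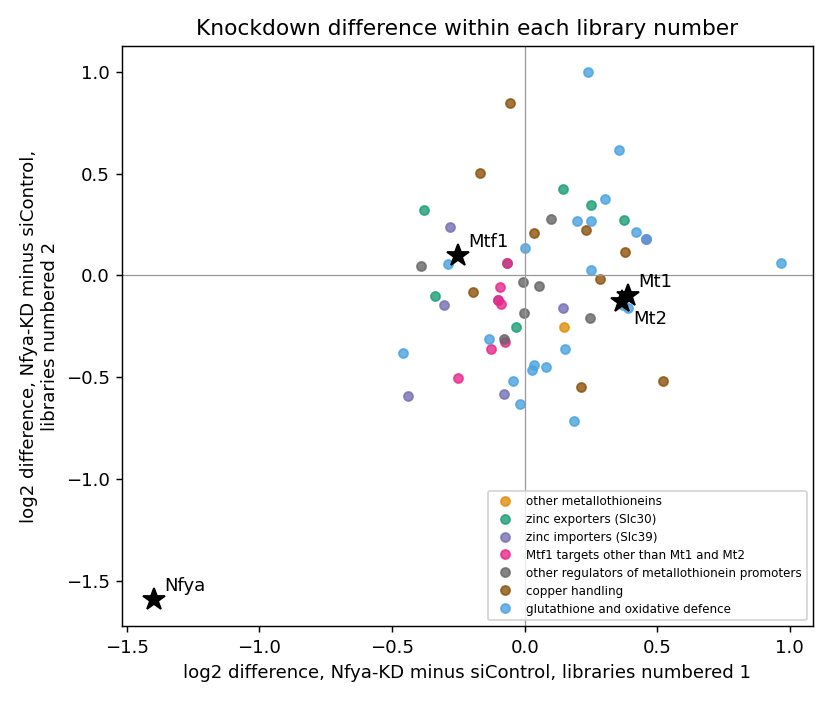
Difference in log2(FPKM + 1), Nfya-KD minus siControl, among libraries numbered 1 on the horizontal axis and among those numbered 2 on the vertical axis, for the metal-handling genes that passed the filter (circles, coloured by list) and for Mt1, Mt2, Mtf1 and Nfya (stars). Mt1 and Mt2 lie together at 0.39 and 0.37 for number 1 and at -0.10 and -0.13 for number 2, whereas Nfya lies at -1.40 and -1.59.

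For Mt1 and Mt2 the widest gap among 2-cell embryos was between library numbers, not between Nfya-KD and siControl. Mt1 in library 2 stood at 4.19 times library 1 in Nfya-KD and at 5.87 times in siControl. Mt2 stood at 4.64 times in Nfya-KD and at 6.56 times in siControl. Mtf1 stood at 1.03 times in Nfya-KD and 0.791 times in siControl. The gap of the metallothioneins was present in both groups, and their regulator had none of that size. At least 4-fold higher in number 2 within both groups were 88 of the 10533 genes (0.835%), Mt1 and Mt2 among them. At least 2-fold higher were 10.3% of genes and at least 2-fold lower 1.11%.

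Other quantities moved with the library number, and their part in the metallothionein gap was not tested. Summed FPKM was 449820 in Nfya-KD 2 and 260569 in Nfya-KD 1, and 457684 in siControl 2 and 243441 in siControl 1. With each library scaled to an equal sum, the log2 gap between numbers fell to 1.28 in Nfya-KD and 1.64 in siControl for Mt1, against 2.06 and 2.55 as deposited. For Mt2 it fell to 1.42 in Nfya-KD and 1.80 in siControl, against 2.21 and 2.71. The same scaling gave Mtf1 gaps of -0.71 in Nfya-KD and -1.20 in siControl, against 0.04 and -0.30 as deposited. That scaling moved the median gap of all genes too, to -0.57 in Nfya-KD and -0.61 in siControl, against 0.14 and 0.20 as deposited. Such scaling multiplies every gene of a library by the same factor, so the fall is not particular to these genes. Mt1 and Mt2 stayed higher in number 2 under both scalings. Mtf1 was lower there with an equal sum, as was the median gene. The 81 cytosolic ribosomal protein genes had a median gap of 0.93 in Nfya-KD and 1.14 in siControl, against 0.14 and 0.20 over all genes. Oocyte markers summed to 3391 FPKM in Nfya-KD 2 and 1336 FPKM in Nfya-KD 1, and to 3207 FPKM in siControl 2 and 1182 FPKM in siControl 1. Of these 8 markers 1 was at least 2-fold higher in number 2 within both groups, Oosp1, named after its values were seen. Oosp1, an oocyte-secreted protein gene, made up most of each sum. Markers of the 2-cell stage summed to 382 FPKM in Nfya-KD 2 and 384 FPKM in Nfya-KD 1, and to 610 FPKM in siControl 2 and 366 FPKM in siControl 1. The 4 sperm markers summed to 10.4 FPKM in Nfya-KD 2 and 2.86 FPKM in Nfya-KD 1, and to 7.66 FPKM in siControl 2 and 5.93 FPKM in siControl 1. That sum was higher in number 2 in both groups, but its members disagreed in siControl. There Prm2 was at 6.53 FPKM in library 2 and 2.98 FPKM in library 1, and Tnp1 at 1.14 and 2.69 FPKM. Cumulus and granulosa markers summed to less in number 2, at 3.98 FPKM in Nfya-KD 2 and 5.53 FPKM in Nfya-KD 1, and at 6.50 FPKM in siControl 2 and 7.01 FPKM in siControl 1. Tnfaip6 made up most of each of these sums. It was lower in number 2 in Nfya-KD, but in siControl it was at 5.17 FPKM in library 2 and 4.78 FPKM in library 1. The numbers also differed in embryos per pool, with 13 and 16 in number 2 and 10 and 10 in number 1.

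**Figure D3:**
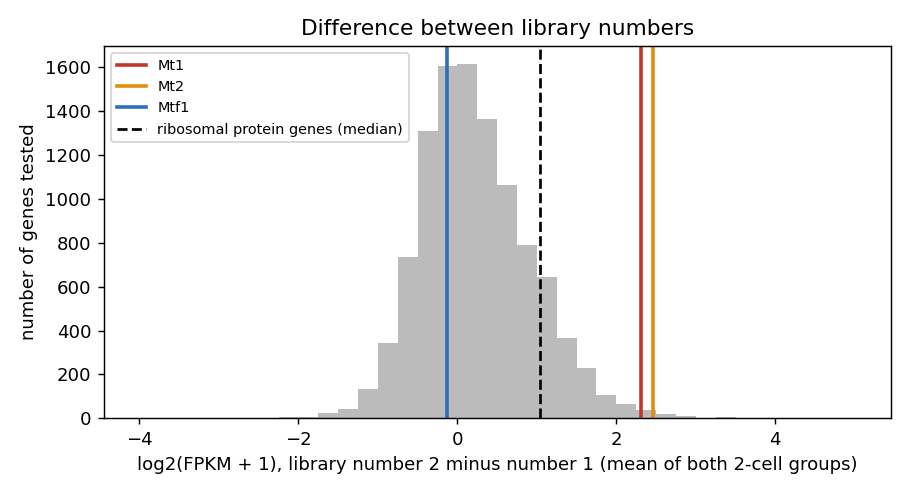
Number of tested genes by the difference in log2(FPKM + 1) between libraries numbered 2 and 1, averaged over Nfya-KD and siControl (grey bars; 3 genes lie outside the plotted range), with lines for Mt1, Mt2, Mtf1 and the median of ribosomal protein genes. Mt1 and Mt2 lie at 2.31 and 2.46, in the far right tail, and Mtf1 lies at -0.13, near the peak.

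In 2-cell libraries the remaining metallothionein genes were far lower than Mt1 and Mt2, whereas Mt4 stood above both in the 1-cell library. Mt4, best known from stratified squamous epithelia, was at 26.8 and 50.5 FPKM in Nfya-KD, at 24.1 and 60.4 FPKM in siControl and at 15.9 FPKM in 1-cell embryos. Its siControl mean was 2.66 times the 1-cell level, and it too was higher in libraries numbered 2, by 1.89 times in Nfya-KD and 2.51 times in siControl. Mt3, the form of the brain, was listed at 0 in 4 libraries and at 0.717 FPKM in Nfya-KD 2. The windows of Mt3 and Mt4 held 1 metal response element core each.

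Across metal-handling genes, no gene passed in the knockdown comparison, as none did among all genes. Limma with Benjamini-Hochberg adjustment called 0 of 10533 genes lower (0.0%) and 0 higher (0.0%), with 92 lower (0.873%) and 47 higher (0.446%) at an unadjusted p under 0.05. No member of the lists described here was among those 139 genes. The fit had no term for the library number, so gaps between numbers widened the spread that it measured. The median difference of every list with more than 1 measured gene changed sign when some library was left out. Leaving one out makes library numbers unequal between groups, so gaps between numbers enter these values. Within numbers 1 and 2 the medians were -0.19 and -0.15 for zinc importers and -0.09 and -0.13 for reported MTF1 targets. For copper handling they were 0.21 and 0.12, and for other regulators -0.0014 and -0.054. Those of zinc exporters (-0.03 and 0.27) and oxidative defence (0.19 and -0.06) changed sign. The lists are therefore described by their levels, their direction and their stage differences.

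Slc30 exporters move zinc out of the cytosol, and 7 of 10 were measured. Of these 3 lay above 0 and 4 below 0 in Nfya-KD against siControl, with a median log2 difference of -0.0026, beside 0.01 over all genes. That median ran from -0.02 without siControl 1 to 0.34 without Nfya-KD 1. Slc30a1, the exporter of the cell surface and an MTF1 target, was at 4.09 and 10.4 FPKM in Nfya-KD, at 4.33 and 9.94 FPKM in siControl and at 2.66 FPKM in 1-cell embryos. It shared the gap between library numbers, at 2.54 times in Nfya-KD and 2.30 times in siControl. Slc30a3, which fills synaptic vesicles with zinc in neurons, was at 9.81 and 8.67 FPKM in Nfya-KD and at 12.6 and 9.37 FPKM in siControl, against 137 FPKM in 1-cell embryos. The 1-cell level stood far above all 4 2-cell libraries. Slc30a6, a Golgi exporter, ran the other way, with 8.29 and 10.8 FPKM in Nfya-KD, 6.16 and 8.72 FPKM in siControl and 0.754 FPKM in 1-cell embryos. Both Nfya-KD libraries lay above both siControl libraries for 2 of the 7 measured exporters, beside 8.27% of all genes. Slc30a9 was at 1.56 and 1.72 FPKM in Nfya-KD against 1.15 and 1.14 FPKM in siControl, and Slc30a5, of the secretory pathway, at 5.27 and 6.71 FPKM against 4.68 and 4.75 FPKM. Neither passed (limma adjusted p = 1.00 for both).

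Slc39 importers bring zinc into the cytosol, and the 2 most abundant were lower in 2-cell than in 1-cell embryos. Slc39a10, which MTF1 represses in mouse cells and which takes up zinc in mouse oocytes together with Slc39a6, was at 45.1 and 32.9 FPKM in Nfya-KD and at 48.5 and 35.9 FPKM in siControl, against 151 FPKM in 1-cell embryos. Slc39a6 was at 23.7 and 12.7 FPKM in Nfya-KD and at 21.3 and 14.4 FPKM in siControl, against 84.4 FPKM in 1-cell embryos. Both stayed more than 2-fold lower than in 1-cell embryos under the 2 other scalings. Of 14 importers 6 were measured in the knockdown comparison, and all 6 lay below 0, with a median of -0.17. That median ran from -0.29 without Nfya-KD 1 to 0.10 without siControl 1, was -0.02 without Nfya-KD 2, and was -0.02 with low genes kept in. Of 7 importers with at least 1 FPKM at either stage, 2 were at least 2-fold higher and 3 at least 2-fold lower in siControl than in 1-cell embryos. Over all genes the shares were 22.2% and 34.1%. With median-of-ratios scaling the importer counts were 3 and 2, beside 31.1% and 17.2% of all genes.

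Among 8 other reported MTF1 targets, 1 lay above 0 and 7 below 0 in Nfya-KD, with a median of -0.11 that ran from -0.33 without Nfya-KD 2 to 0.36 without siControl 2. Between stages 3 were at least 2-fold higher and 3 at least 2-fold lower in siControl, or 4 and 2 with median-of-ratios scaling. Over all genes the shares were 22.2% and 34.1%, or 31.1% and 17.2% with that scaling. Slc30a1 and Slc39a10, described above, are among the 8. The list was not split by whether MTF1 raises or represses a gene, and it represses Slc39a10. The counts and medians of the list are therefore not a measure of MTF1 action. Sepw1, a small selenoprotein gene now named Selenow, was at 133 and 462 FPKM in Nfya-KD and at 140 and 579 FPKM in siControl, against 176 FPKM in 1-cell embryos. Csrp1, a LIM-domain gene reported as an MTF1 target in zebrafish, was at 4.04 and 4.06 FPKM in Nfya-KD and at 4.37 and 4.27 FPKM in siControl, against 12.5 FPKM in 1-cell embryos. Its Nfya-KD libraries lay just below both siControl libraries, a log2 difference of -0.07 (SE 0.24). At least 2-fold higher in library number 2 within both groups were 4 of the 8, beside 10.3% of all genes. They were Slc30a1, Sepw1, 2700094K13Rik and Cited2, named after their values were seen.

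Other factors known to act on metallothionein promoters were the E-box factors Usf1 and Usf2, Sp1, the glucocorticoid receptor gene Nr3c1, Stat3, the oxidative stress factor gene Nfe2l2 and the heat shock factor gene Hsf1. Hsf1 was at 35.2 and 31.8 FPKM in Nfya-KD and at 32.8 and 26.1 FPKM in siControl, against 46.5 FPKM in 1-cell embryos. Nfe2l2 lay between 17.3 and 20.7 FPKM in the 4 2-cell libraries, against 18.1 FPKM in 1-cell embryos. In each 2-cell library all 7 stood below Mt1 and Mt2. Of the 7, 0 were at least 2-fold higher and 3 at least 2-fold lower in siControl than in 1-cell embryos. These counts stand beside 22.2% and 34.1% of all genes. With median-of-ratios scaling 1 of the 7 was at least 2-fold lower, beside 17.2% of all genes. In Nfya-KD 3 lay above 0 and 4 below 0, with a median of -0.02 that ran from -0.28 without Nfya-KD 1 to 0.19 without Nfya-KD 2.

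Copper is the other metal that metallothioneins hold in normal cells. Atox1, the copper chaperone of the secretory pathway, was at 173 and 434 FPKM in Nfya-KD and at 147 and 371 FPKM in siControl, against 51.8 FPKM in 1-cell embryos. Slc31a1, the high-affinity copper importer, was at 14.7 and 25.9 FPKM in Nfya-KD and at 14.3 and 22.2 FPKM in siControl, against 9.59 FPKM in 1-cell embryos. Of 9 measured genes of copper handling, 7 lay above 0 and 2 below 0 in Nfya-KD, with a median of 0.13 that was -0.18 without siControl 1 and 0.35 without siControl 2. Between stages, 3 of 9 were at least 2-fold higher and 2 at least 2-fold lower in siControl, or 5 and 2 with median-of-ratios scaling. Among all genes the shares were 22.2% and 34.1%, or 31.1% and 17.2% with that scaling.

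Genes of glutathione and oxidative defence, which share with metallothioneins a role against reactive oxygen, went both ways between stages. Of 21 with at least 1 FPKM at either stage, 9 were at least 2-fold higher in siControl than in 1-cell embryos and 5 at least 2-fold lower. With median-of-ratios scaling the counts were 10 and 3. The shares of all genes were 22.2% and 34.1%, or 31.1% and 17.2% with that scaling. The peroxiredoxin gene Prdx2 was at 715 and 2128 FPKM in Nfya-KD and at 676 and 2907 FPKM in siControl, against 559 FPKM in 1-cell embryos. Prdx1 was at 253 and 807 FPKM in Nfya-KD and at 197 and 526 FPKM in siControl, against 776 FPKM in 1-cell embryos. In the knockdown comparison 12 of 22 lay above 0 and 10 below 0, with a median of 0.09 that ran from -0.27 without siControl 1 to 0.44 without siControl 2, and 4 of the 22 had both Nfya-KD libraries above both siControl libraries, beside 8.27% of all genes. The sulfiredoxin gene Srxn1 was one of these, at 1.69 and 1.32 FPKM in Nfya-KD against 1.28 and 0.162 FPKM in siControl, a log2 difference of 0.62 (SE 0.40). The glutathione reductase gene Gsr was another, at 2.01 and 2.76 FPKM in Nfya-KD against 1.45 and 1.90 FPKM in siControl, a log2 difference of 0.34 (SE 0.27). Neither passed (limma adjusted p = 1.00 for both).

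**Figure D4:**
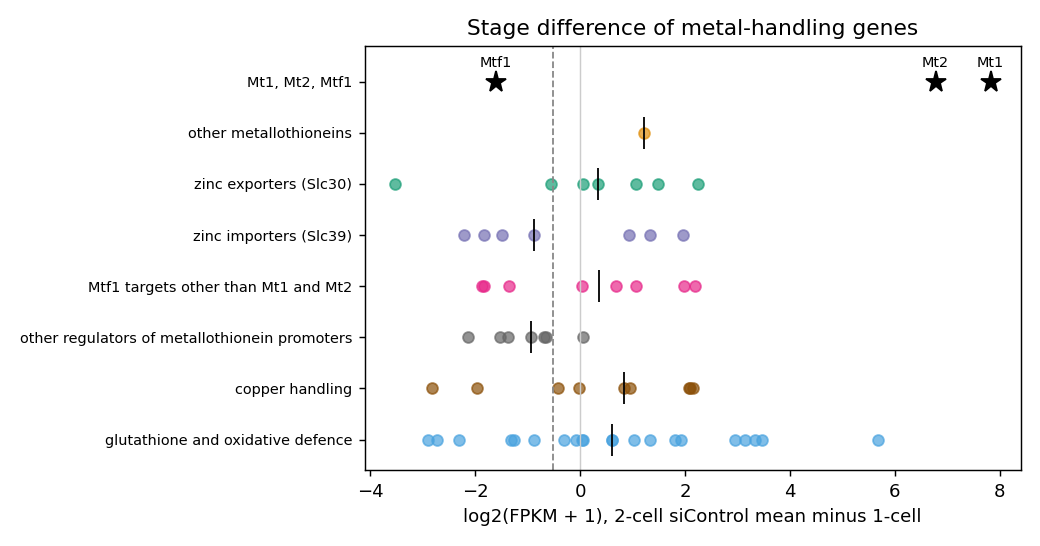
Difference in log2(FPKM + 1), mean of 2-cell siControl minus 1-cell, for Mt1, Mt2 and Mtf1 (stars) and for the listed genes with at least 1 FPKM at either stage (circles, 1 row per list, black ticks at list medians; the dashed line is the median of all genes at -0.51). Mt1 at 7.82 and Mt2 at 6.78 lie beyond every listed gene, and Mtf1 lies at -1.60.

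The genes most like each of the 3 were sought by distance between profiles of log2(FPKM + 1) over the 5 libraries, each centred on its own mean. Smaller distances mean more similar profiles. Among 6379 genes with a mean of at least 5 FPKM, all at 1 FPKM or more in at least 2 libraries, the 5 nearest to Mt1 were Crxos1 (distance 0.37), Obox3 (0.63), Gm11517 (0.74), Guca1a (0.80) and Prps1 (0.82). Crxos1 and Obox3 are homeobox genes of early embryos. Crxos1 was at 260 and 1001 FPKM in Nfya-KD and at 177 and 1008 FPKM in siControl, against 0.514 FPKM in 1-cell embryos. The 5 nearest to Mt2 were Prps1 (0.28), Rfpl4b (0.34), Tdpoz5 (0.60), Gm10697 (0.60) and H47 (0.76). Prps1 encodes an enzyme of nucleotide synthesis, and H47, now named Selenos, a selenoprotein of the endoplasmic reticulum. Prps1 was at 108 and 448 FPKM in Nfya-KD and at 79.3 and 439 FPKM in siControl, against 0.599 FPKM in 1-cell embryos. Mt1 and Mt2 were at a distance of 0.96 from each other, so on this scale each had nearer genes than its neighbour. Mt2 was number 9 in the order from Mt1, and Mt1 was number 8 in the order from Mt2. These orders depend on the added 1 FPKM. In the 1-cell library the listed genes lay between 0.0889 FPKM (Guca1a) and 0.599 FPKM (Prps1), against 4.29 FPKM for Mt1 and 3.43 FPKM for Mt2. The added 1 shrinks such differences, and no other pseudocount was tried for the distances. Tdpoz5 and Gm10697 had the same 1-cell value of 0.435 FPKM and may share reads, so their levels are uncertain.

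Mtf1 had closer matches, among the 10840 genes that reached 1 FPKM in 2 or more of the 5 libraries. They were Ccdc91 (0.09), Ube4a (0.09), Cux1 (0.11), Bet1 (0.11) and Afap1 (0.12). Ube4a encodes a ubiquitin ligase, Cux1 a homeobox transcription factor and Bet1 a vesicle-fusion protein of the Golgi. Ccdc91 was at 8.13 and 7.83 FPKM in Nfya-KD and at 9.76 and 7.50 FPKM in siControl, against 29.0 FPKM in 1-cell embryos. These genes share the libraries and their depth with Mtf1, and 5 points with 1 high value are a simple profile to match.

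**Figure D5:**
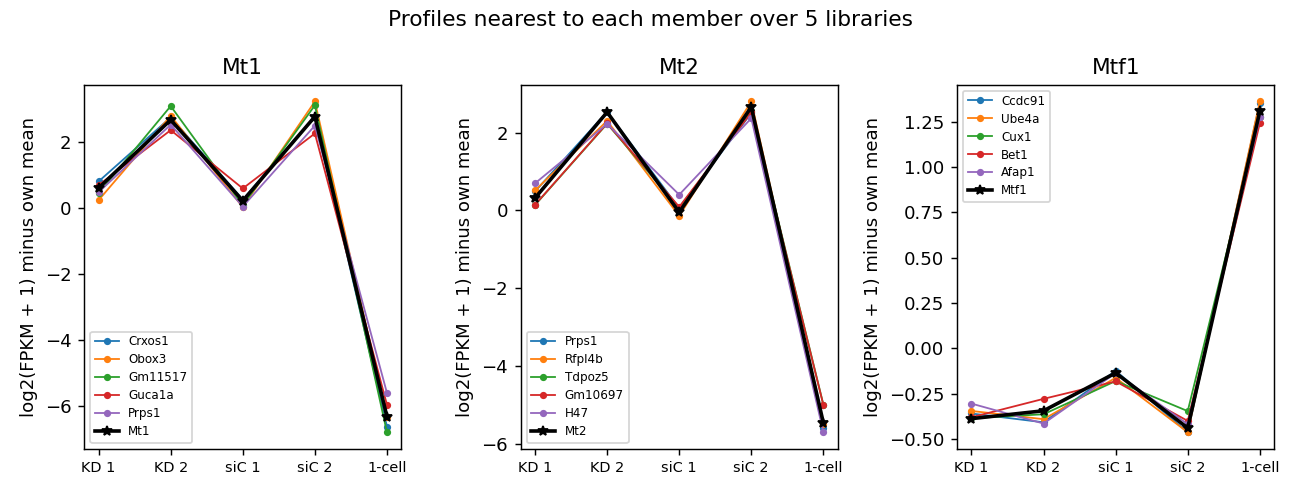
Profiles of log2(FPKM + 1) minus each gene's own mean across Nfya-KD 1 and 2 (KD), siControl 1 and 2 (siC) and the 1-cell library, for Mt1, Mt2 and Mtf1 (black stars) and the 5 genes nearest to each (coloured lines). The profiles near Mt1 and Mt2 are lowest in the 1-cell library and higher in libraries numbered 2 than in those numbered 1, and those near Mtf1 are highest in the 1-cell library.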

How the data were processed

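RNA was measured in 5 libraries of pooled embryos, grouped by the sample labels. The authors deposited FPKM per gene, by the name of the table. The submitters' processing notes name the build mm9 and, per the labels, Cufflinks 2.2.1, TopHat2 2.0.6 and Bowtie 0.12.9, without their role for each file. No counts were used, so intervals for counting error could not be given. The open-chromatin regions carry no gene names and were not analysed here, since gene coordinates on mm9 were not used.

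Values were taken as log2(FPKM + 1), which understates changes of low genes. The genes reaching 1 FPKM in 2 or more of the 4 2-cell libraries were fitted with limma 3.58.1 (R 4.3.3, eBayes with trend, group as the only term, Benjamini-Hochberg threshold 0.05), a fit tested on simulated data. A stage difference counted from 2-fold upward on that scale, among genes with 1 FPKM in the 1-cell library or on average in siControl. Relative depth was read from steps in values under 0.3 FPKM. Motifs were matched by exact letters in RefSeq windows with Python 3.11.15.

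The genes and gene lists were chosen with earlier results of these data known. Named genes were Mt1, Mt2, Mtf1, Nfya, the 2 members of each list with the highest siControl mean, up to 2 with separated libraries and the largest difference, and the 5 nearest profiles. Slc30a1 was named outside this rule. The comparison of library numbers and the ribosomal protein genes were added after seeing the data. Alternatives were a pseudocount of 0.1, scaling to an equal sum or by the median of ratios, no filter, a term for the library number, and leaving out each library.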

Additional observations from a re-analysis of the deposited data

How the results depend on the processing

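The count of genes called in Nfya-KD, 0 lower and 0 higher, rose under most alternatives. It was 1 lower and 0 higher with a pseudocount of 0.1, 3 lower and 1 higher with each library scaled to an equal sum, and again 3 lower and 1 higher with median-of-ratios scaling. With no filter on low values it was 0 and 0. With a library left out it was 5 to 25 lower and 1 to 6 higher, where the lone library of a group is assumed to vary like the others. With the library number as a replicate block it was 9 lower and 2 higher. Deviations of same-numbered libraries had a correlation of 0.74 across genes, but no label says that the numbers mark a shared batch. The numbers of calls at an unadjusted p were 549 lower and 535 higher with the block. Mt1, Mt2 and Mtf1 were chosen by these same levels, so no fit outcome is given for them. The Mt1 difference between Nfya-KD and siControl ranged from -1.13 to 1.42 with a library left out, that of Mt2 from -1.24 to 1.47 and that of Mtf1 from -0.23 to 0.07. The block cannot change these pooled differences, since each group holds both library numbers. The stage difference of Mtf1, -1.60 as deposited, was -1.34 with an equal sum and -0.87 with median-of-ratios scaling. That of Mt1, 7.82 as deposited, was 9.10 without siControl 1 and 6.55 without siControl 2. For Mt2, at 6.78 as deposited, these values were 8.13 and 5.42. A pseudocount of 0.1 and the 2 scalings gave 8.09 to 8.48 for Mt1 and 7.10 to 7.41 for Mt2. The cause of these shifts was not tested. Depth limits low genes most, since read numbers are not known.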
